A study of Drosophila melanogaster with 3 samples.

Results

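The genes described here encode the Polycomb and trithorax groups of chromatin regulators, together with the Brahma remodelling complexes of Drosophila melanogaster. They were listed by name. Of them, 20 were placed under the Polycomb complexes PRC1, PhoRC, PRC2 and PR-DUB. The other 17 were placed under the trithorax histone-methylation group, kis and the Brahma complexes. All 37 were found among the 13968 protein-coding genes of the dm6 annotation (Ensembl release 115), and each was examined for binding of the transcription factor crp. Binding was measured by chromatin immunoprecipitation and sequencing (ChIP-seq) in 1 group of 3 biological replicates. The embryos were whole, of mixed sex and 0 to 24 h old, and came from a transgenic line in which crp carries a C-terminal GFP tag that an anti-GFP antibody precipitates. Sonication gave chromatin fragments between 200 and 800 bp. The labels do not say if the tagged crp was an added copy or stood in place of the native one. The groups hold no second genotype, treatment or age, and the control library was not analysed here. Every value is thus an average over all tissues and stages of embryogenesis, and occupancy in fewer cells and weaker occupancy per cell cannot be told apart.

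crp (cropped) is the Drosophila member of the AP-4 family of basic helix-loop-helix leucine-zipper factors, which bind E-boxes as dimers and prefer the palindrome CAGCTG. Polycomb complexes keep developmental genes silent through histone methylation, ubiquitylation and compaction: PRC2 methylates histone H3, PRC1 binds that mark and ubiquitylates histone H2A, PhoRC brings sequence-specific DNA binding and PR-DUB removes the ubiquitin. Trithorax proteins act in the opposite sense by methylating other residues of histone H3, and the Brahma complexes slide and evict nucleosomes, so that the balance between these groups holds Hox and other developmental genes on or off through development.

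The authors deposited 5460 reproducible dm6 peaks, which their irreproducible discovery rate (IDR) step kept from a pool of the replicates, a pooled relaxed list of 28145 peaks, and 30000, 28713 and 30000 peaks for replicates 1, 2 and 3. A gene was counted as having a promoter summit when an IDR summit lay within 500 bp of one of its annotated start sites; a summit near the starts of 2 genes counted for both. Levels are given as relative signal, the authors' signal value at a replicate's summit within 100 bp of the IDR summit, divided by the median signal of that replicate's 5460 strongest peaks, so that 1 is the level of a middling strong peak. The IDR list was built from these same replicates, so a match between it and a replicate is partly built in. Read depth behind the signal is unknown.

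The sequences under a few summits show the range of sites met at these genes. The first set was chosen because each window holds CAGCTG, a repeated GAGAG (the core of the GAGA-factor site) or a CGATA element (part of the DNA-replication-related element), which are in capitals on either strand (so that CGATA can read TATCG and GAGAG can read CTCTC), and because the 3 start sites of ash2 each have a summit over a different one of these. All are from the dm6 assembly as RefSeq distributes it, run 5′ to 3′ on the strand from which the gene is transcribed, reach at most 50 bases to each side of the summit and stop where the gene's untranslated region begins. Su(z)12 is chr3L:19923566-19923666 on the minus strand, the 3 ash2 windows are chr3R:24651085-24651179, chr3R:24650049-24650124 and chr3R:24651297-24651397 on the plus strand, ph-d is chrX:2123353-2123453 on the minus strand, and the osa intron is chr3R:17713007-17713107 on the minus strand.
Su(z)12 promoter: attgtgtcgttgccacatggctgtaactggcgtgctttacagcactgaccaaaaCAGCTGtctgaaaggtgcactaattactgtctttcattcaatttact
ash2 start with an E-box: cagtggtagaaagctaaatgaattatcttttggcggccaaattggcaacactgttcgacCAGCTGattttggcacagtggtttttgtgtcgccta
ash2 start shared with puf: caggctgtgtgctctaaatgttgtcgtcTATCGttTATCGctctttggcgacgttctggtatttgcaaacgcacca
ash2 start with GAGAG: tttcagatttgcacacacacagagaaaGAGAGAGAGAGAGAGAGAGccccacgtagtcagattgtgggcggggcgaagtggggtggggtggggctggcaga
ph-d promoter: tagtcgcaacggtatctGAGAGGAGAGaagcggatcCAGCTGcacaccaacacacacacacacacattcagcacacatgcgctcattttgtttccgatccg
osa intron: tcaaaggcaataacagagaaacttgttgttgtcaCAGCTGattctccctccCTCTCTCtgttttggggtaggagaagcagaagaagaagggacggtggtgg

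The second set was chosen as a contrast. These are A+T-rich windows with no CAGCTG at which replicate 2 was the highest of the 3 replicates, printed in the same way and holding none of these 3 motifs: the stronger ph-p summit is chrX:2137270-2137370, the brm promoter is chr3L:15982958-15983058 and the second osa intron site is chr3R:17704377-17704477, all on the minus strand.
ph-p promoter: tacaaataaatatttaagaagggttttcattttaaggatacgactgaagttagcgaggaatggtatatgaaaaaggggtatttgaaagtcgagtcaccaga
brm promoter: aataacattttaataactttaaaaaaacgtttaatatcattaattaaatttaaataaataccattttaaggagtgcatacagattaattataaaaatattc
osa intron, A+T-rich: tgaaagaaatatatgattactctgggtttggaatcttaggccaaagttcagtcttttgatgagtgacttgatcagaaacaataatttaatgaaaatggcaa

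Promoter summits of crp were found at a larger share of these genes than of all genes. An IDR summit lay at the promoter of 23 of the 37 members (62.2%, 95% Wilson interval 46.1 to 75.9%, counting error only), against 33.3% of all protein-coding genes. The Polycomb complexes had 14 of 20 (70.0%, 48.1 to 85.5%), and the trithorax and Brahma members had 9 of 17 (52.9%, 31.0 to 73.8%). Within the Polycomb group, PRC2 had a summit at 7 of 8 genes, PR-DUB at 2 of 2, PhoRC at 2 of 3 and PRC1 at 3 of 7. On the other side, the Brahma complexes had 5 of 9, the trithorax methylation group 3 of 7 and kis 1 of 1. With only the stronger 2730 IDR peaks the members' share was 27.0%, against 21.1% of all genes, with 7 of 20 Polycomb genes and 3 of 17 trithorax and Brahma genes (17.6%, below the share of all genes).

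Scored in each replicate by its own 5460 strongest peaks, the members with a promoter summit numbered 17, 20 and 24 in replicates 1, 2 and 3 (54.95 ± 9.49%, SD, n = 3), against 30.3%, 31.7% and 32.1% of all genes. Polycomb genes gave 9, 12 and 16 of 20 (61.7 ± 17.6%). Trithorax and Brahma genes gave 8 of 17 in each replicate (47.1%). The Polycomb counts moved mostly in PRC2, with 5, 7 and 8 of its 8 genes, and in PRC1, with 1, 1 and 4 of 7. The share of Polycomb genes was higher than that of trithorax and Brahma genes by 17.1 percentage points on the IDR list, and the difference was -2.06, 12.9 and 32.9 points in replicates 1, 2 and 3. Its mean of 14.6 points was smaller than its own spread of 17.6 points (SD, n = 3), so the replicates did not separate the groups, and with 3 replicates no exact sign-flip test could go below p = 0.25. The difference was 2.06 points when only canonical start sites were used (11 Polycomb and 9 trithorax or Brahma genes, with 30.5% of all genes). Among peaks strong in both other replicates, leaving out replicate 3 left 12 members (7 Polycomb and 5 trithorax or Brahma, with 24.9% of all genes), and leaving out replicate 2 left 9 Polycomb genes (with 25.8% of all genes).

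**Figure D1:**
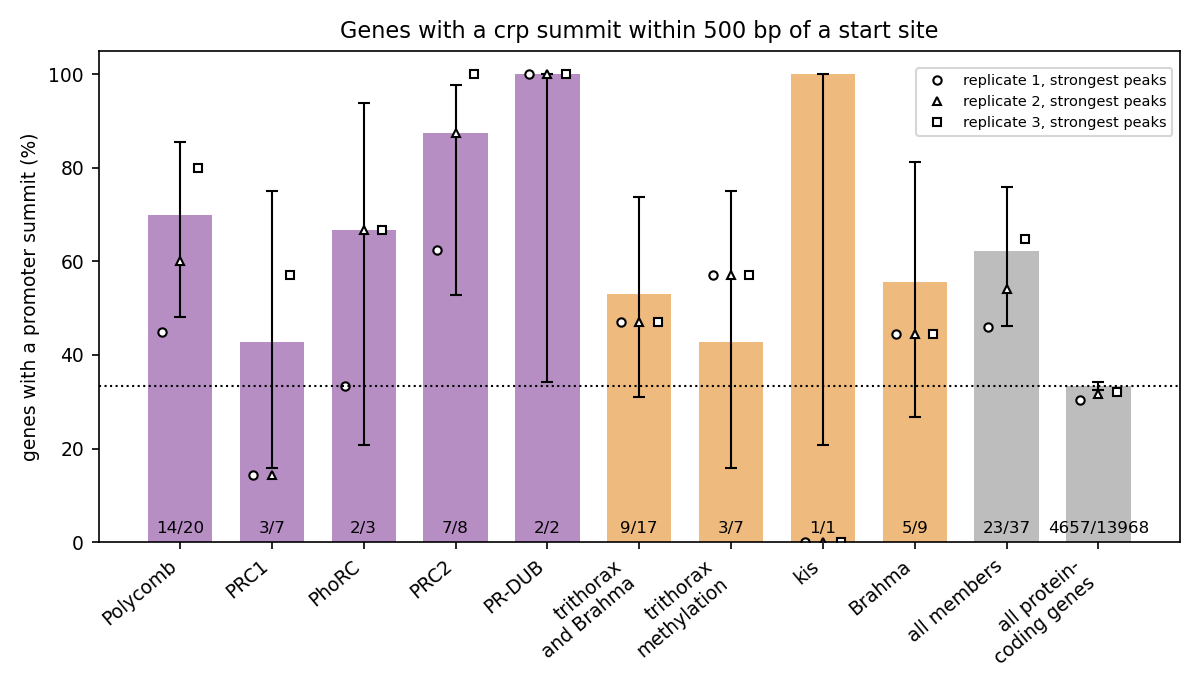
Share of genes (percent) with a crp summit within 500 bp of a start site on the IDR list (bars, with 95% Wilson intervals and counts) and among the 5460 strongest peaks of each replicate (points), for each complex, each group, all members and all protein-coding genes; the dotted line is the share of all genes. Replicates 1, 2 and 3 of the Polycomb bar sit at 9, 12 and 16 of 20 genes, while the trithorax and Brahma bar has 8 of 17 in each.

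The levels ordered the members more sharply than the counts did. The highest mean relative signal per gene had a median of 0.631 over the 23 members with a promoter summit, with 10 of them above 1 (43.5%), against 1.30 and 58.1% over all genes with one. The Polycomb genes had a median of 0.930 with 7 of 14 above 1, and the trithorax and Brahma genes 0.530 with 3 of 9 above 1. In order of mean level, Su(z)12, calypso and jing did not overlap in replicate values with each other or with ash2, which came next. From ash2 and ph-p down, neighbours in the order overlapped, except that E(z) stayed above Bap60. Counted by summit instead of by gene, the 29 promoter summits were close to the list in rank. Of them, 16 (55.2%) were among its stronger 2730 peaks, against 57.7% of the 3975 promoter summits in all. The median IDR rank of the 29 was 2125, against 2300. These 16 summits came from 10 members, so genes with several strong summits counted more than once. Some of the repeated summits, at calypso, Bap170 and ash2, lay within the same called peak. The replicates matched member summits less often than the list. Of the 29, 15 (51.7%) were among the strongest peaks of every replicate, against 61.4% of all promoter summits. The share was 47.1% for Polycomb and 58.3% for trithorax and Brahma summits. With intronic summits included, 28 of 41 member summits were matched in all 3 replicates, against 4447 of all 5460 IDR summits. Where a replicate had no summit within 100 bp of the IDR summit, it was left out of the mean. Some means thus rest on fewer than 3 replicates, as at ph-d (1) and esc (2). The strongest summit of such a replicate elsewhere in the promoter window is given separately below.

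**Figure D2:**
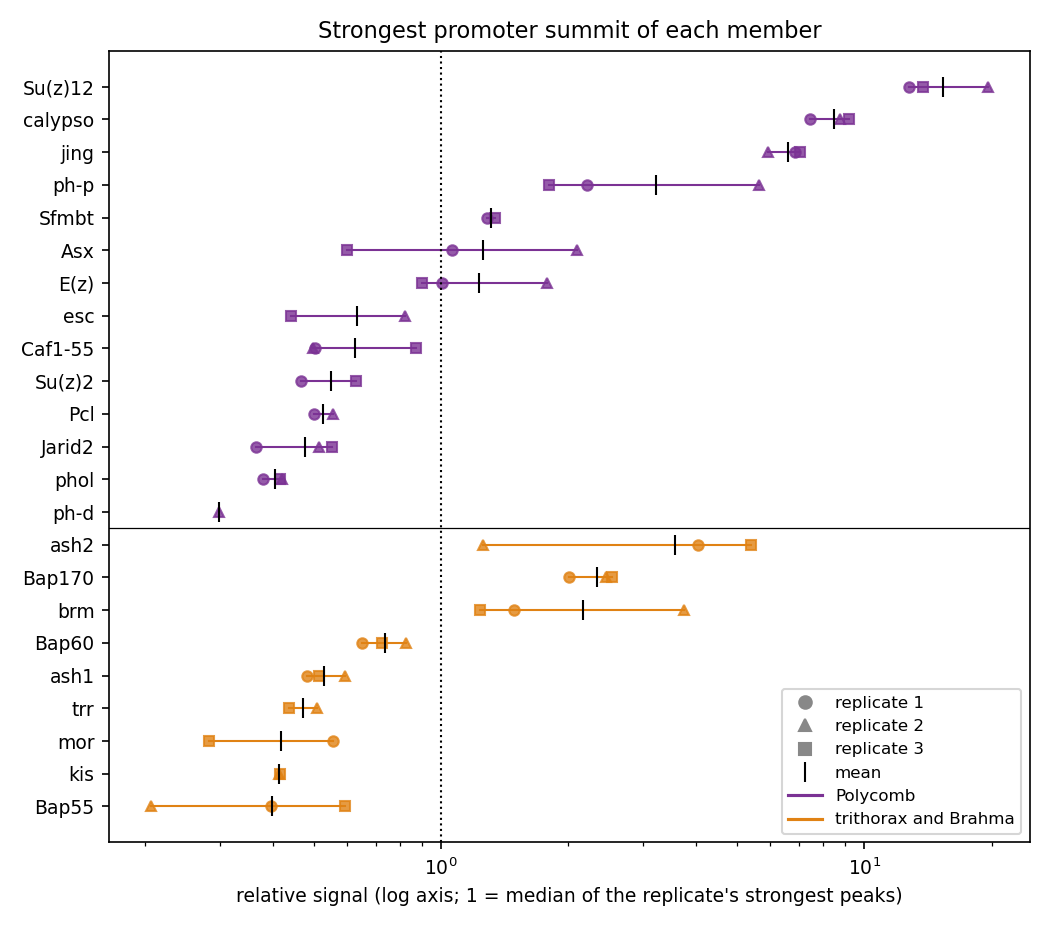
Relative signal (log axis, 1 being the median of a replicate's 5460 strongest peaks) of the strongest promoter summit of each member, with a symbol for each replicate and a black tick for the mean, Polycomb genes above and trithorax and Brahma genes below. Su(z)12 is highest at a mean of 15.4, ash2 leads the lower panel at 3.56, and ph-d, matched within 100 bp in replicate 2 alone, is lowest at 0.298.

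PRC2, the methyltransferase complex, held the strongest promoter summit and several below 1. Su(z)12, a core subunit needed for the activity of the enzyme, lies at 3L:19918242-19923462 on the minus strand and had a summit at position 19923616, 154 bp before its start, with IDR rank 122. Its relative signal was 12.8, 19.6 and 13.8 in replicates 1, 2 and 3 (15.4 ± 3.68, SD, n = 3), the highest of all members in every replicate. The summit is also 55 bp before the start of the divergent gene Pfdn6, a prefoldin subunit, which is nearer, and the CAGCTG printed above is centred 6.5 bp from it. jing, the fly relative of the vertebrate accessory subunit AEBP2, had 6.87, 5.91 and 7.04 (6.61 ± 0.609) 85 bp before an internal start site of its 119.8 kb gene, over a CAGCTG 1.5 bp from the summit. E(z), the catalytic subunit, was far lower, at 1.01, 1.78 and 0.901 (1.23 ± 0.479), 52 bp inside the gene and 68 bp before the start of Cnep1r2. The others lay below 1: the histone-binding subunit Caf1-55 at 0.503, 0.499 and 0.873, the accessory subunit Jarid2 at 0.365, 0.514 and 0.553, Pcl at 0.500 and 0.554 in replicates 1 and 2 (replicate 3 had 0.560 elsewhere in the promoter window), and the WD-repeat subunit esc at 0.821 and 0.442 in replicates 2 and 3 alone. escl, the paralogue of esc, was the PRC2 gene with no IDR promoter summit. Its summit in the pooled list ranked 9661, and replicate 3 alone had a summit in its promoter window (0.441).

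The PR-DUB genes both had a pair of promoter summits. calypso, the H2A deubiquitinase (caly in the annotation, at 2R:16194062-16196333 on the minus strand), had its stronger summit at position 16196373, 40 bp before its start, with relative signal 7.43, 8.78 and 9.19 (8.47 ± 0.920) and IDR rank 493. Its CAGCTG was centred 34.5 bp from the summit, and the start of CG44242 was nearer, at 11 bp. A weaker calypso summit 246 bp upstream reached 3.11, 2.25 and 2.77, below the other in every replicate, and lay in the coding sequence of CG44242. Both calypso summits were in the same called peak. Asx, the partner that activates calypso, had 1.06, 2.10 and 0.600 (1.25 ± 0.768) at 124 bp before its start, and 1.09 and 1.30 in replicates 1 and 3 at 380 bp before it. Cpsf160, a cleavage and polyadenylation factor, starts 90 bp from the farther Asx summit and is the nearer gene there.

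PRC1 had summits at a smaller share of its genes than PRC2, and apart from ph-p and Sfmbt the promoter summits of PRC1 and PhoRC lay below 1. ph-p, one of the adjacent copies of polyhomeotic, had 2.21, 5.64 and 1.80 (3.22 ± 2.11) at 465 bp before an internal start site, and a second summit 395 bp past its first start site that was matched in replicate 2 alone (1.66). Its copy ph-d had a single weak summit, 117 bp upstream, matched within 100 bp in replicate 2 alone (0.298), with CAGCTG centred 11.5 bp away. Elsewhere in the ph-d promoter window the strongest summits of replicates 1, 2 and 3 had 0.412, 0.338 and 0.577. Part of the sequence at these summits is repeated: 6.22% of the 36-base words around the stronger ph-p summit and 12.2% around the ph-d summit occur more than once in the chromosome arms, while no other member window held any. Whether they recur in the other copy or elsewhere was not tested. A read no longer than such a word cannot be placed at 1 position, and longer reads were not tested. Su(z)2, a RING-finger paralogue of Psc, had 0.466 and 0.631 in replicates 1 and 3. In PhoRC, phol, the paralogue of the DNA-binding protein pho, had 0.380, 0.421 and 0.416, and Sfmbt, the MBT-repeat subunit, 1.29 and 1.34 in replicates 1 and 3, with CG5439 nearer to the summit at 169 bp. Replicate 2 had 2.10 at another summit in the Sfmbt window.

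Among the trithorax methylation genes, ash2 stood apart from the others. ash2 encodes a core subunit shared by the COMPASS-type histone H3 methyltransferases, and each of its 3 annotated start sites had its own summit. The gene lies at 3R:24650125-24653376 on the plus strand. The strongest summit, at position 24651135 and 45 bp before its start, reached 4.04, 1.25 and 5.39 (3.56 ± 2.11), with CAGCTG 11.5 bp away. The summit at position 24650099, 26 bp before a start and 56 bp before the start of the ubiquitin protease gene puf, was the steadiest at 1.89, 1.86 and 2.06 (1.94 ± 0.109). The third, at position 24651347 over the GAGAG run, reached 1.83, 0.244 and 1.26 (1.11 ± 0.805) and lay in the same called peak as the strongest. Replicate 2 was thus the lowest at the E-box and the GAGAG starts but close to the others at the CGATA start. ash1, a histone H3 methyltransferase that opposes Polycomb silencing, had 0.483, 0.592 and 0.514 at 135 bp before its start and 198 bp before Taf6, a subunit of the general factor TFIID. trr, a histone H3 methyltransferase that works with Utx, had 0.509 and 0.436 in replicates 2 and 3, with the mitochondrial ribosomal gene mRpL16 nearer to the summit at 120 bp, and replicate 1 had 0.621 elsewhere in the window.

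Of the remodellers, brm and Bap170 were above 1. brm, the ATPase of both Brahma complexes, had 1.49, 3.75 and 1.24 (2.16 ± 1.38) at 139 bp before its start in the A+T-rich window printed above, with replicate 2 highest and Arl1 nearer at 127 bp. Bap170, a subunit specific to the PBAP form, had a pair of summits in the same called peak. The one 228 bp upstream reached 2.00, 2.46 and 2.54 (2.33 ± 0.288), with CAGCTG 19.5 bp away and the mitochondrial chaperone gene Trap1 starting 22 bp from it. The one 28 bp upstream reached 1.75, 1.56 and 1.86 (1.72 ± 0.153) and was the only member promoter summit over a full DNA-replication-related element (TATCGATA). Bap60 had 0.651, 0.828 and 0.727, and Bap55, an actin-related subunit, 0.396, 0.206 and 0.594, their nearest starts being those of CG12096 and Lhr. mor, a scaffold subunit, had 0.556 and 0.283 in replicates 1 and 3, and kis, a CHD-family remodeller, 0.413 and 0.416 in replicates 2 and 3. Elsewhere in their promoter windows, replicate 2 had 1.00 at mor, above its other replicates, and replicate 1 had 0.127 at kis. osa, which defines the other (BAP) form of the complex, and polybromo, the second PBAP-specific subunit, had no promoter summit.

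The 29 promoter summits lay mostly upstream and often at shared promoters. Of them, 25 (86.2%) were upstream of the member's start, against 79.2% of all promoter summits, with a median position of -93 bp against -49 bp. All 12 trithorax and Brahma summits and 13 of 17 Polycomb summits were upstream. The start of another gene was nearer than that of the member for 10 of the 29. Where another protein-coding gene started within 500 bp, 16 of 19 members had a summit (84.2%), against 62.5% of all such genes. Where none did, 7 of 18 members had one (38.9%), against 20.3%. The members' share was thus above that of all genes in both classes, which were set up after the data were seen. All 8 Polycomb genes with such a neighbour had a summit, as did 8 of 11 trithorax and Brahma genes. Counting a summit only for the gene with the nearest start left 11 Polycomb and 5 trithorax or Brahma genes, with 25.2% of all genes.

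**Figure D3:**
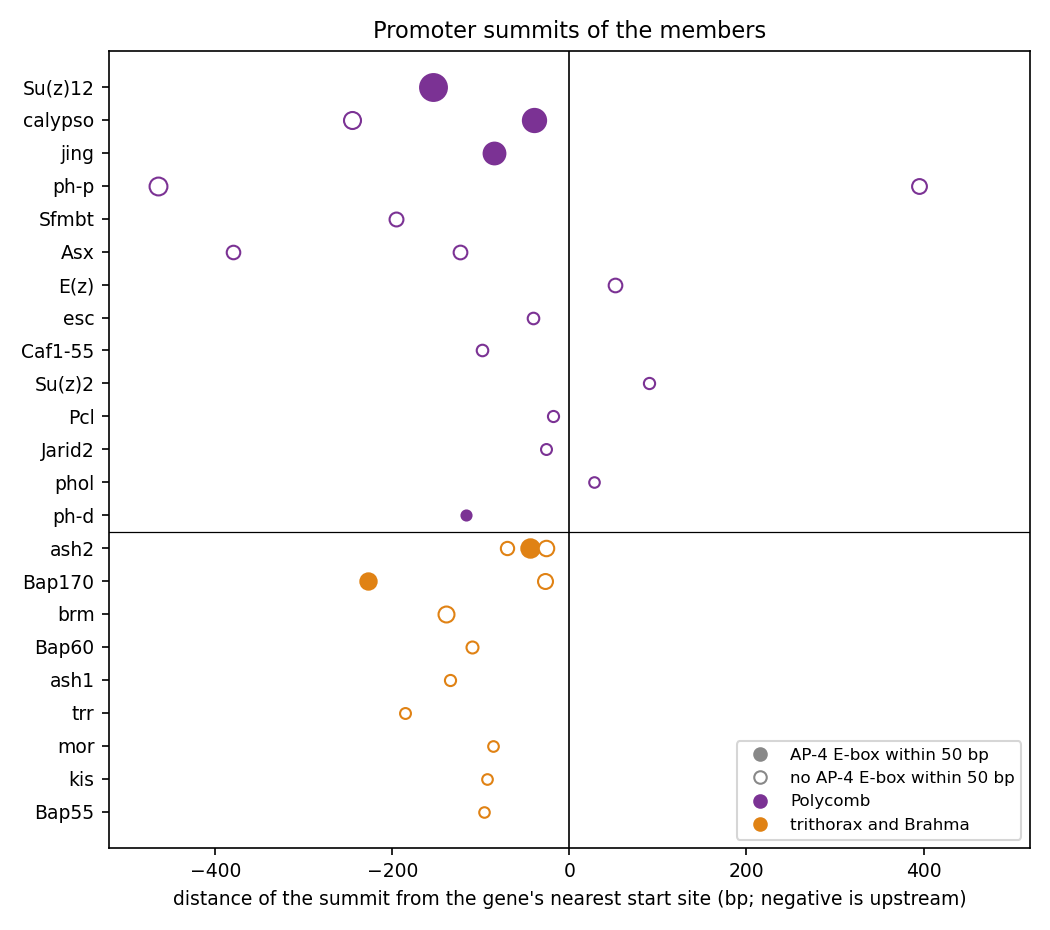
Distance (bp, negative being upstream) of each promoter summit from the member's nearest start site, Polycomb genes above and trithorax and Brahma genes below; filled points have CAGCTG within 50 bp and larger points have higher relative signal. Of the 29 points 25 lie upstream, and the 4 downstream ones are all Polycomb summits.

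CAGCTG was no more frequent at member promoter summits than elsewhere. It was searched on both strands within 50 bp of the summit and was present at 6 of 29 (20.7%, 9.85 to 38.4%), against 1192 of 3975 (29.99%) of all IDR promoter summits. Polycomb summits had it at 4 of 17 (23.5%), and trithorax and Brahma summits at 2 of 12 (16.7%). The 6 summits belong to Su(z)12, calypso, jing, ph-d, ash2 and Bap170, and all but the one at ph-d are at genes whose mean relative signal was above 2. The other motifs, also on both strands, were GAGAG at 4 (13.8%, against 11.6%), CGATA at 7 (24.1%, against 30.7%), the PHO core GCCAT at 7 (24.1%, against 17.0%), TATCGATA, which contains CGATA, at 1 (3.45%, against 7.82%), the M1BP site GGTCACACT at 1, at Pcl (3.45%, against 3.40%), and the E2F site at 0 of 29, which allows a share of up to 10.3%, against 2.77%. These are matches of letters in a window, not sites shown to be used. Counted by gene instead, 10 of the 12 members with CAGCTG within 250 bp of a start site had a promoter summit (83.3%, against 55.7% of all such genes), and 13 of the 25 without it had one (52.0%, against 23.3%).

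Inside the genes and over 500 bp from every protein-coding start site, 12 summits fell in 7 of the 37 members, against 5.18% of all genes; the members are longer, with a median of 5847 bp against 2164.5 bp. Polycomb genes held 5 of these summits in 3 genes, and trithorax and Brahma genes 7 in 4 genes. All were in introns of the member. jing and osa each held 3, and 0.659% of all genes held 3 or more. osa, with no promoter summit, had 1.22, 3.32 and 1.05 at 13923 bp from its start, 1.41, 1.30 and 2.74 at 5293 bp, where the CAGCTG printed above is 13.5 bp from the summit, and 1.11, 1.61 and 0.753 at 17789 bp. trx, the founding histone H3 methyltransferase of the group, likewise lacked a promoter summit and had 1.61, 3.41 and 1.35 (2.12 ± 1.12) in an intron at 3031 bp. These 2 genes were the members without a promoter summit whose introns held summits above 1. The remaining intronic summits ranked from 2875 to 5244 in the IDR list. That in brm had 0.622, 0.393 and 1.39, with CAGCTG 0.5 bp away, and lies also in the 3′ untranslated region of the nested gene CG17027. ph-p had 0.385, 1.09 and 0.490, and kis 0.318, 0.922 and 0.303, with replicate 2 highest in both. jing had 0.495, 0.129 and 0.965 at the strongest of its 3, with replicate 2 lowest, and means of 0.443 and 0.431 at the other two. The second trx summit had 0.629 and 0.518 in replicates 2 and 3, and Psc, a RING-finger subunit with no promoter summit, had 0.294 and 0.832 in replicates 1 and 2. CAGCTG stood at 3 of the 12, against 26.9% of 1075 such summits in all genes. The lists built without replicate 1 or without replicate 3 are shorter, at 3377 and 3428 peaks. Each gave 3 members such a summit (8.11% of the 37, against 2.38% and 2.64% of all genes).

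**Figure D4:**
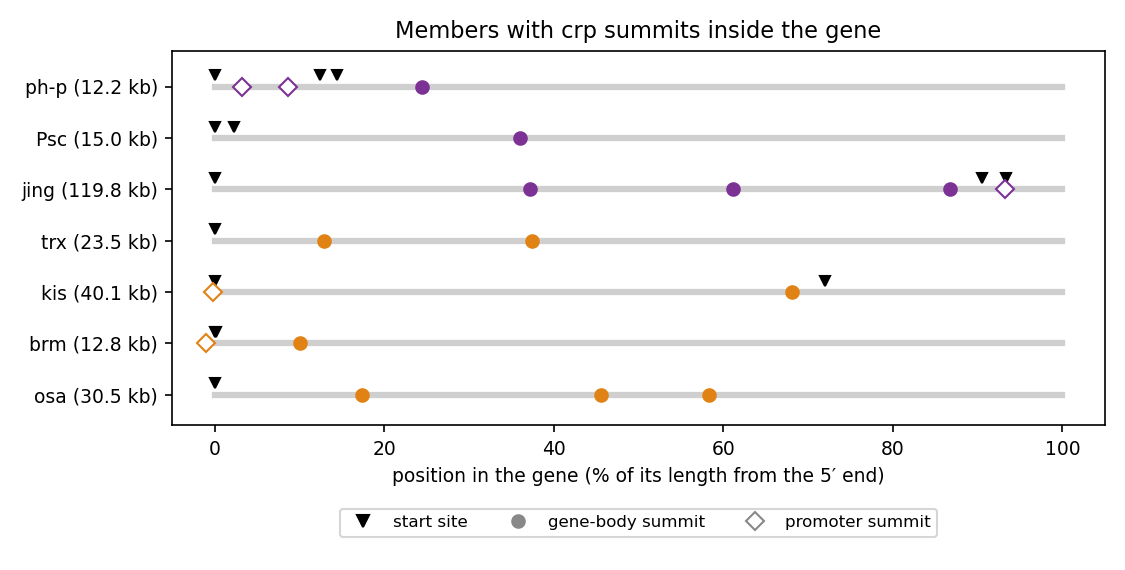
Position of IDR summits along the 7 members with summits inside the gene, as a percent of gene length from the 5′ end, with start sites as triangles, intronic summits over 500 bp from any start as filled circles and promoter summits as open diamonds. osa has 3 intronic summits and no promoter summit, jing has 3 and trx 2.

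The 14 members without an IDR promoter summit were not all empty. In the pooled relaxed list 33 of the 37 members had a summit within 500 bp of a start (89.2%), against 57.2% of all genes. Among those without an IDR promoter summit, 10 of the 14 members had one (71.4%), against 35.8% of all such genes. Replicate values in this paragraph are those of the strongest summit in the promoter window, which need not be at the pooled summit. trx ranked 5604 there, 38 bp inside the gene. Its window had relative signal 0.468, 0.525 and 0.453, among the 5460 strongest peaks of every replicate. Pc, whose chromodomain reads the mark of PRC2, ranked 5466, 59 bp before its start, and its window had 0.380, 0.234 and 0.512. The line between presence and absence thus fell between like values: phol ranked 5457 inside the IDR list. Snr1, a core Brahma subunit, ranked 6849 and Scm, a SAM-domain Polycomb protein, 6879, while osa, escl, Utx (a histone H3 demethylase), wds (a WD-repeat COMPASS subunit), Bap111 and Psc ranked 8719, 9661, 10067, 10912, 11515 and 16140. Sce (the H2A ubiquitin ligase), pho, Set1 and polybromo had none in the pooled list, though pho reached 1.05 in replicate 2 alone. With neither a promoter nor an intronic IDR summit were 11 members (29.7%, against 64.4% of all genes), 5 Polycomb and 6 trithorax or Brahma.

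Replicate 2 differed from the others along base composition at these genes and in the whole list. The comparison, made after the values were seen, was the log2 ratio of relative signal in replicate 2 over the mean of replicates 1 and 3, at summits matched in all 3. Under 35% G+C within 50 bp of the summit, replicate 2 was higher at 11 of 14 member summits (78.6%, median log2 ratio 1.05), against 74.1% and 0.69 over all IDR summits. Between 35% and 45% it was higher at 5 of 5 member summits, with a median of 0.11, against 46.6% and -0.07. At 45% G+C or above it was higher at 1 of 9 (11.1%, median -0.67), against 33.2% and -0.33. CAGCTG was at 0 of the 22 member summits under 35%, which allows a share of up to 13.6%, and at 6 of the 13 at 45% or above (46.2%). These shares are close to the 5.19% and 47.8% of all IDR summits in the same classes. kis, osa, ph-p, brm, Asx and trx led the first group, and the log2 ratio at ash2 was -2.66 and -1.91 at its GAGAG and E-box starts. Across summits, which share the same 3 libraries, Spearman's rho between G+C and the ratio was -0.689 over 28 member summits and -0.422 over 4447. Member promoter summits had a median of 34.7% G+C, Polycomb ones 40.6% and trithorax and Brahma ones 33.7%, against 41.6% over the list; the part of base composition in the counts above was not tested.

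**Figure D5:**
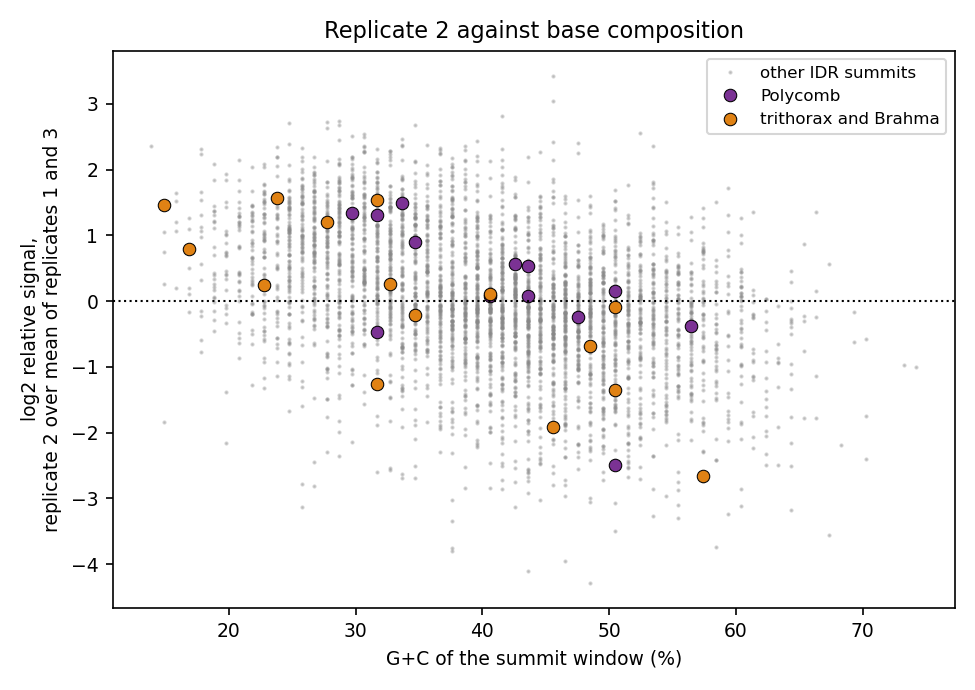
Log2 ratio of relative signal in replicate 2 over the mean of replicates 1 and 3 against G+C within 50 bp of the summit (percent), for Polycomb summits, trithorax and Brahma summits and all other IDR summits (grey) matched in all 3 replicates. The ratio is positive at 11 of the 14 member summits under 35% G+C and at 1 of the 9 at 45% or above.

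Genes of the same pathways outside the list gave similar shares. Their levels are those of each replicate's strongest summit in the promoter window, not of a summit matched to the IDR summit. They are thus not the same measure as the members' levels. Of 16 related Polycomb and repressor factors, 11 had a promoter summit (68.8%, against 33.3% of all genes), 7 of them above 1. corto, which binds both Polycomb and trithorax proteins, was highest at 7.60, 5.08 and 12.5 (8.38 ± 3.75). The NuRD remodeller Mi-2 followed at 2.53 ± 0.487, with 5 further summits inside the gene. psq, a BTB-domain protein that binds GAGA sequences, and the demethylase gene Kdm2 had none at a promoter but 4 and 3 inside the gene. Of 20 related trithorax and remodelling factors, 15 had a promoter summit (75.0%), but only 2 were above 1: the remodeller Chd1 at 7.42, 8.28 and 10.8 (8.83 ± 1.74) and Lpt, a subunit of the trr complex, at 3.37 ± 0.458. In these lists the trithorax side thus had the larger share of genes, and the Polycomb side had more genes above 1.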

How the data were processed

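The deposited peak lists hold, per peak, a signal value from the authors' peak caller, and the deposited text notes list alignments and control-normalized tracks beside them. The sources used here name no aligner, peak caller or IDR cut-off. The dm6 IDR, pooled and replicate lists were used. The dm3 lists were not used, and no column of another sample was present (0).

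Summits (peak start plus offset) were set against start sites and gene models of Ensembl release 115 with Python 3.11.15, numpy 2.4.6, pandas 2.3.3 and scipy 1.17.1, and the figures were drawn with matplotlib 3.10.9. The counting was tested on simulated data. The members and lists were chosen with earlier results of these data known. Shares carry 95% Wilson intervals, and no test was run on the members. All 37 members are accounted for: those with an IDR summit at a promoter or inside the gene by their values, the others by their pooled summit. Other genes are named where they share a summit or belong to the related lists. Promoter windows of 200 and 1000 bp, matching at 50 and 200 bp, motif windows of 25 and 100 bp, stricter and looser lists and left-out replicates were the alternatives, and the G+C, neighbour and start-site splits were added after the data were seen.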

Additional observations from a re-analysis of the deposited data

How the results depend on the processing

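No paired analysis was possible because the 3 replicates form 1 group. The difference between Polycomb and trithorax or Brahma genes stayed above 0 under every alternative list, start-site rule and left-out replicate, although it was -2.06 points in replicate 1 alone. It ranged from 1.76 points on the pooled list, less than the share of a single gene, to 25.6 points with the nearest gene only. The alternatives reuse the same replicates, so their common sign is not independent evidence. The stronger 2730 IDR peaks gave a promoter summit to 10 members (27.0%, against 21.1% of all genes; 7 Polycomb, 3 trithorax or Brahma, the last at 17.6% and so below all genes) and an intronic one to 2 (5.41%, against 1.87%), and the 2905 strong in every replicate gave promoter summits to 12 members (32.4%, against 23.0% of all genes; 7 Polycomb, 5 trithorax or Brahma). These lists are shorter by construction. The pooled list gave 15 trithorax or Brahma genes a promoter summit (88.2%, against 57.2% of all genes). It gave 15 members a summit inside the gene (40.5%, against 26.5% of all genes). Assigning each summit to the nearest gene gave 5 trithorax or Brahma genes (29.4%, near the 25.2% of all genes). Leaving out each replicate gave 12 to 16 members, 7 to 10 Polycomb genes and 5 to 7 trithorax or Brahma genes (against 24.9 to 25.8% of all genes). The difference was then 3.82 to 14.7 points. CAGCTG stood at 5 member promoter summits each time (23.8 to 31.2%, against 31.3 to 33.2% of all promoter summits). Members with a summit inside the gene numbered 3 to 5 (against 2.38 to 2.67% of all genes). Windows of 200 and 1000 bp kept every count within 1.5 times. The main limits are the unknown read depth, which sets no interval on any signal, the IDR list's cut-off between like values, the single tagged line and the mix of tissues.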
